A study of Mus musculus with 2 samples.

Results

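The cells described here are pancreatic beta cells of wild type (WT) mouse islets whose insulin transcripts made up a small share of their RNA. They were taken from 1 droplet library by fixed limits. A barcode needed at least 5610 unique molecular identifiers (UMIs, which count captured RNA molecules), 500 genes and at most 15% mitochondrial UMIs. Ins1 and Ins2 together had to hold from 20 to under 35% of its UMIs, with Gcg and Ppy each under 1.5% and Sst under 0.3%. These limits gave 305 cells of 4541 (6.72%), and they are called low-insulin cells. The reference was the 2629 cells that met the same limits with insulin from 35 to under 60%.

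The series set islets of WT mice against islets of mice with a beta cell specific miR-203 transgene, in 1 library each. The mice of both groups were 8 weeks old and male, and had been fasted for 12 hours. How many mice gave each library is not stated, and the labels also carry a preparation text on sorted gut goblet cells that does not match the tissue named elsewhere. The transgenic cells were not analysed here, so no cell barcode could be counted as shared between the libraries, and everything below comes from the WT library. With 1 library there is no replicate and no test: cells of the library share its preparation, and each 95% interval (exact Poisson for levels, exact conditional binomial for ratios, exact binomial for shares of cells) covers counting error only.

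Beta cells make proinsulin in the endoplasmic reticulum (ER), fold it there, cleave it and store insulin in dense granules together with amylin. Misfolded proinsulin is removed by ER-associated degradation, in which Sel1l and the ubiquitin ligase Syvn1 (also called Hrd1) move proteins out of the ER for destruction. Cells with much misfolded protein switch on the unfolded protein response, which raises ER chaperones and the degradation machinery.

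The insulin share chose the cells, so it is a description and not a result. It ran from 20.1% to 34.99% with a median of 30.3%, against a median of 50.1% in the reference. The nearest cells just outside the limits had insulin at 19.99% and 35.01%. The nearest values inside and outside were 1.48% and 1.98% for Gcg, 1.46% and 1.52% for Ppy, and 0.273% and 0.343% for Sst. Before the hormone limits 402 cells lay in the insulin range, and the limits on Gcg, Ppy and Sst removed 97 of them. No doublet caller was run, and the hormone limits removed mixtures with other endocrine cells only.

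Low-insulin cells held less insulin RNA and more other RNA per cell. The median was 6040 insulin UMIs (lowest 1301, highest 15139), against 11178 in the reference (2204 to 51170). The median of all other UMIs was 14591 (4760 to 37531), against 11363 (2335 to 34783). The low share thus went with both a smaller numerator and a larger remainder, and the ranges of both overlapped widely between the groups. Both counts enter the share that chose the cells, so they too are a description. Median total UMIs were 20746 and 22692. A median of 4172 genes was detected per low-insulin cell, against 3412. After every cell was thinned to 8000 non-insulin UMIs, which left out 10 low-insulin and 208 reference cells, the medians were 2917 and 2752 genes.

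**Figure D1:**
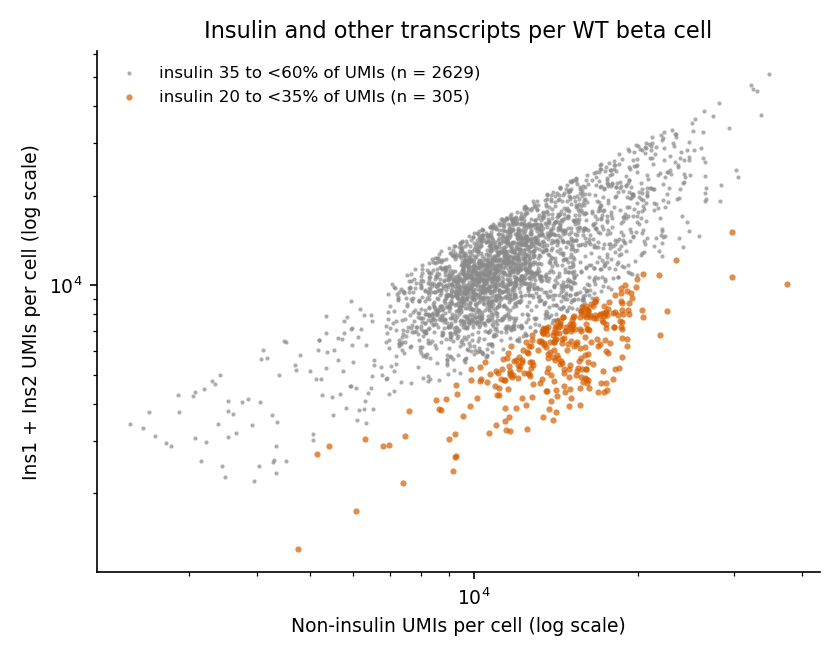
Ins1 plus Ins2 UMIs against all other UMIs, both on log scales, for each of the 305 low-insulin cells (orange) and the 2629 reference cells (grey). The straight borders between and above the clouds are the limits on the insulin share. The low-insulin cells lie to the lower right, with medians of 14591 non-insulin and 6040 insulin UMIs.

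Mitochondrial transcripts took a larger share of the low-insulin cells. The median was 5.73% of UMIs, against 3.29%. Counted among non-insulin UMIs it was 8.15%, against 6.61%, so the difference remained when insulin was left out of the total. All levels below are UMIs of a gene per 1000000 non-insulin UMIs (CPM), summed over the cells of a group, so that the insulin share that chose the cells does not enter the total. Because the library reads transcript 3' ends, these UMI levels were not divided by gene length.

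The cells carried beta cell transcripts, as the label says. Iapp, which encodes amylin, stood at 68359 CPM, and Ucn3, a peptide of mature beta cells, at 371. The glucose transporter Slc2a2 had 170 CPM and the transcription factors Nkx6-1 and Pdx1 had 243 and 79.9. In the reference these genes stood at 99594, 485, 168, 251 and 90.9 CPM. Thus Slc2a2 and Nkx6-1 were near the reference, while Iapp, Ucn3 and Pdx1 had lower levels. In droplets of at most 200 UMIs (free RNA) insulin made up 34.0% of UMIs, inside the range of the rule. The summed identity list, which includes Iapp, stood there at 91985 CPM, against 73120 in low-insulin and 104241 in reference cells. That summed level therefore does not by itself set the cells apart from free RNA. In steps of 5 points of insulin share Ucn3 went from 323 CPM at 20 to under 25% to 542 at 55 to under 60%. Of 19 beta cell identity genes measured, 0 were 1.5-fold higher or lower, whereas over all 6479 genes measured 2.3% were at least 1.5-fold higher (149 genes) and 2.44% at least 1.5-fold lower (158 genes). A gene was measured if it had 20 CPM or more in either group, so a gene below that level in the other group could enter only from the side where it was high. That was so for 65 of the 149 higher and 25 of the 158 lower genes. The median log2 ratio of the identity list was 0.05, beside 0.15 for all genes.

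Most genes thus lay slightly above 0, with 68.0% of the 6479 genes higher in low-insulin cells, and the median gene lay at log2 0.15. Relative to that median gene, 35 genes were 1.5-fold higher and 360 lower. The share of higher genes among those past 1.5-fold was therefore 48.5% on the plain scale and 8.86% relative to the median gene. Ratios are given on the plain scale. List medians stand beside 0.15, and list counts beside 2.3% higher and 2.44% lower over all genes.

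The ratio of a gene went with the length of its transcript. Over the 6473 genes with an annotated length (longest GENCODE transcript), Spearman's rho between length and log2 ratio was 0.58 and Pearson's r with log2 length 0.51. These are descriptions across genes, which share the 2 groups of cells and are not independent. The genes were cut by length into 5 groups of equal size. In the group of shortest transcripts (183 to 1864 bases) the median log2 ratio was -0.17, and 25.3% of genes were higher. In the group of longest transcripts (5509 to 93092 bases) it was 0.30, and 94.0% were higher. Long transcripts therefore made up most of the higher genes, whose median length was 4718 bases, and short ones most of the lower genes, whose median was 1230 bases.

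The relation was also present where depth and insulin differed less. Among cells of 15000 to under 30000 UMIs (267 low-insulin and 1959 reference cells) rho was 0.55. Between cells of 30 to under 35% and 35 to under 40% insulin it was 0.26. Between 2 groups that both lie in the reference, of 45 to under 50% and 55 to under 60% insulin, it was 0.43, so the relation with length is not confined to the low-insulin cells. Ratios were therefore also taken relative to the median of genes of like length (the same of 10 groups by transcript length), on which scale 46 genes were 1.5-fold higher and 156 lower. These values are given for the 5 genes chosen with the rule, for several lists and wherever a named gene past 1.5-fold fell short of it on that scale. The mitochondrial share of UMIs went down over the same ranges, from a median of 6.47% at 20 to under 25% insulin to 2.52% at 55 to under 60%, and its part in the relation was not tested.

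**Figure D2:**
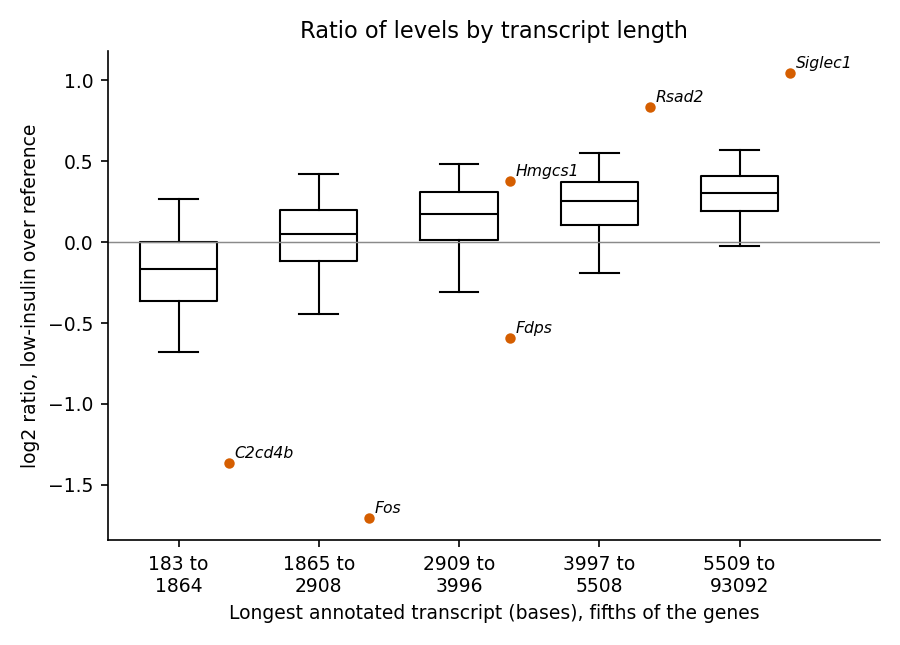
Log2 ratio of the level in low-insulin over reference cells for 6473 genes, in 5 groups by transcript length. Boxes show the median and quartiles, whiskers the 5th and 95th percentiles, and orange points 6 named genes. The medians climb from -0.17 in the shortest to 0.30 in the longest group, while Siglec1 and Rsad2 lie above and Fos, C2cd4b and Fdps below the boxes of their groups.

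Siglec1 stood out among the 5 genes given with the rule (Siglec1, Syvn1, Sel1l, Hmgcs1 and Neat1). It encodes sialoadhesin, a receptor for sialic acids best known from macrophages, and lies at chr2:131069220-131086765 (GRCm38, minus strand, 21 exons in its longest transcript). A low-insulin cell held a median of 4 Siglec1 UMIs (0 to 33), against 1 (0 to 28) in the reference. The level was 411 CPM (392 to 430), against 199 (194 to 204), a 2.07-fold difference (log2 1.05, 0.97 to 1.12). Relative to genes of like length the log2 ratio was 0.74, the 1st rank of its length group. The gene was chosen for this pattern, so its values are a description.

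Siglec1 transcripts were spread over many low-insulin cells rather than held by a few. At least 1 UMI was found in 80.0% of them, against 59.4% of the reference. After thinning the shares were 74.6% (69.2 to 79.4) and 51.1% (49.1 to 53.1). In alpha cells the thinned share was 8.64% (5.72 to 12.4), which serves as a level for free RNA. Alpha cells here are the 305 cells with at least 10% Gcg, under 10% insulin and the same limits on Ppy and Sst, with a median of 14579 UMIs against 20746 in low-insulin cells. A high count of 10 or more UMIs was found in 71 low-insulin cells (23.3%, 18.7 to 28.4) and in 168 reference cells (6.39%, 5.49 to 7.39), while 61 low-insulin cells (20%) had none. The top 3 cells held 4.81% of the UMIs.

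The macrophages of this library held little Siglec1. The 96 cells of the library with over 1% of UMIs from macrophage markers had 16.0 CPM of Siglec1, alpha cells 11.7 and free RNA (droplets of at most 200 UMIs) 155. All 3 values lie below the 411 of low-insulin cells. Without cells in which markers of other types exceeded 0.2% of UMIs (167 low-insulin and 1284 reference cells remain) the log2 ratio was 1.07. These markers include ductal ones such as Krt8, found in 100% of low-insulin and 99.3% of reference cells. With ductal markers not counted 295 and 2590 cells remained.

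Over the insulin share the level of Siglec1 had a step. In the 3 ranges of 5 points from 20 to under 35% insulin it was 459, 421 and 387 CPM. In the next range, from 35 to under 40%, it was 226 (210 to 243), and from there to 60% it was 206, 216, 186 and 177. The largest gap between neighbouring ranges thus fell at 35%, where 387 (362 to 413) stood against 226. Siglec1 was given with the rule, whose limit is this same 35%. The gap there is thus a description and no separate sign of a boundary. Within the low-insulin cells Siglec1 had next to no relation with the insulin share (Spearman's rho -0.04 over 305 cells), which share 1 library. In cells of at most 5% mitochondrial UMIs (94 low-insulin and 2305 reference cells) the log2 ratio was 0.75.

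**Figure D3:**
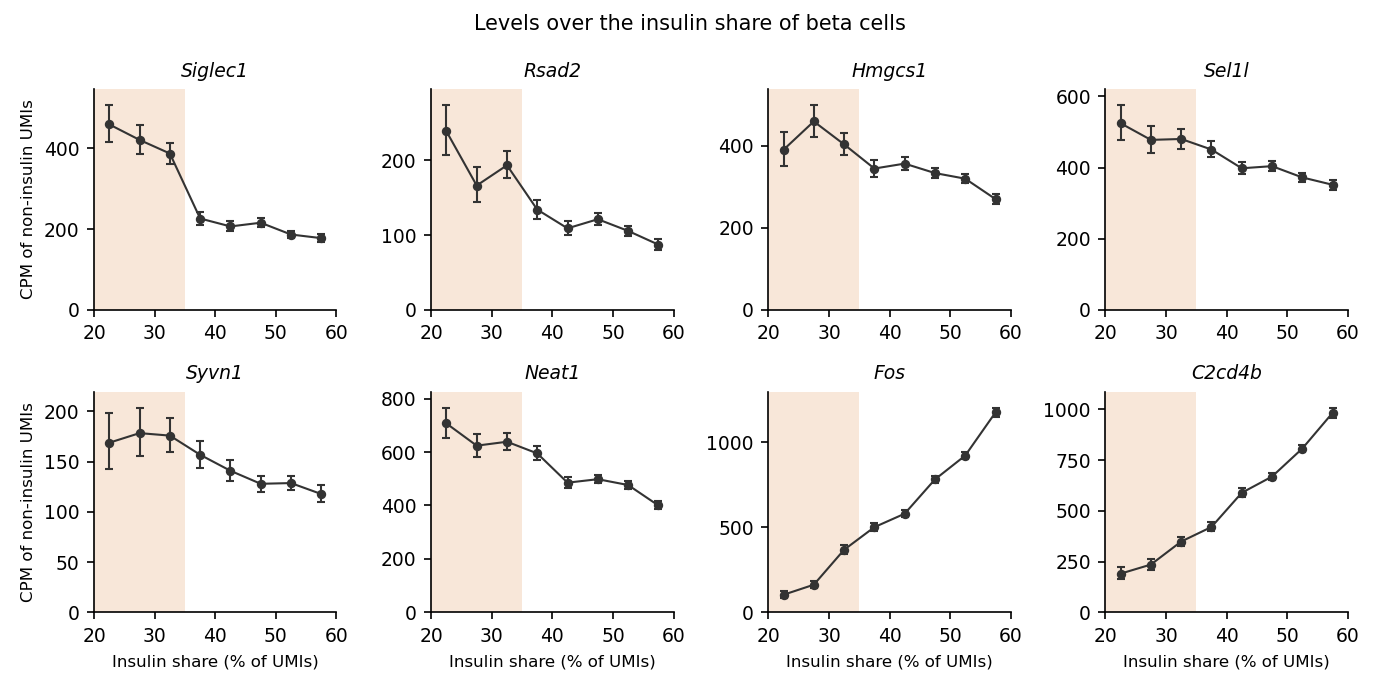
Level of 8 genes (CPM, from 0) in cells grouped by insulin share in steps of 5 points, with 95% exact Poisson intervals for counting error. Shading marks the low-insulin cells. Siglec1, given with the rule, drops from 387 to 226 at the rule's limit of 35%. The other genes given with the rule slope gently, and Fos and C2cd4b climb throughout.

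Syvn1 and Sel1l, the ligase and the scaffold of ER-associated degradation, were modestly higher. Syvn1 (chr19:6046576-6053712, plus strand) had a median of 2 UMIs per low-insulin cell (highest 10), against 1 (highest 13). Its level was 175 CPM (163 to 188), against 131 (127 to 135), a log2 ratio of 0.42 (0.31 to 0.53) and of 0.18 relative to genes of like length. Sel1l (chr12:91806043-91849157, minus strand) had a median of 7 UMIs (highest 25), against 4 (highest 25). Its level was 488 CPM (468 to 509), against 388 (381 to 395), a log2 ratio of 0.33 (0.27 to 0.40). Relative to genes of like length Sel1l was at 0.03, close to other transcripts of its length. Neither gene reached 1.5-fold.

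The Syvn1 promoter is shown because it holds the ER stress response element, the sequence through which unfolded protein signals reach many ER genes. Its letters were searched as CCAAT, any 9 bases and CCACG on both strands of windows from 250 bases before to 50 after the gene start (RefSeq, GRCm38.p6), and 0.13% of 27025 promoters hold it. Capitals mark the element, at positions -44 to -26 from the start, on chr19:6046326-6046575 (plus strand).
Syvn1: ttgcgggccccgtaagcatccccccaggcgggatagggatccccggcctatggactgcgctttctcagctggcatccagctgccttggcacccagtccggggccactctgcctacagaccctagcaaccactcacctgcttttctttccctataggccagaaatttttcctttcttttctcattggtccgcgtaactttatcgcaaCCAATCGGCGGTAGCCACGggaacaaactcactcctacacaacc
Among genes of ER-associated degradation, 3 of 24 promoters in the table hold the element (Creld2, Derl3 and Syvn1), and among ER chaperones 7 of 19. Sel1l has no match in its window, and a match is a description of letters only.

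Across the wider ER lists the low-insulin cells differed little from the reference. Of 30 genes of ER-associated degradation measured, 0 were 1.5-fold higher or lower, and their median log2 ratio was 0.16, beside 0.15 for all genes. Fam8a1, a partner of the Syvn1 complex, was the highest at 0.43, and Ngly1, which strips sugars from misfolded proteins, the lowest at -0.34. Herpud1, a scaffold of the same complex, was at 1591 CPM, against 1388. These members lay on both sides of the median gene.

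Of 24 ER chaperones and folding enzymes, 0 passed 1.5-fold, with a median of 0.11. Hspa5 (BiP), the main ER chaperone, stood at 3699 CPM, against 3249. Hyou1, which exchanges nucleotides on BiP, was at 0.41, while Manf and Fkbp2, small secreted or luminal ER proteins, were at -0.47 and -0.54. Of 9 ER stress sensors and factors 0 passed, with a median of 0.29. Xbp1, the transcription factor spliced by the sensor Ern1, was at 533 CPM, against 453. Relative to genes of like length the median of the sensors was 0.10 and that of the chaperones -0.02, so the lists lay closer together on that scale.

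The integrated stress response, which follows blocked translation initiation, showed 1 higher and 2 lower of 21 genes, and a median of -0.03. Over all genes 2.3% were higher and 2.44% lower. Vldlr was 1.5-fold higher (62.4 CPM against 41.0, log2 0.60), but not relative to genes of like length (log2 0.29). Ddit4, an inhibitor of mTORC1, was lower (33.7 against 59.3, log2 -0.82), as was Phgdh of serine synthesis (23.1 against 34.7, log2 -0.59). The transcription factors at its centre were near the reference: Atf4 stood at 395 CPM against 403. Ddit3 (CHOP) stood at 995 against 1049. Of 35 genes of ER translocation and glycosylation 0 passed, and the median was 0.07, with Sec61a1, the channel subunit, at 0.41 and Spcs1, of the signal peptidase, at -0.58.

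Hmgcs1, which makes the precursor of mevalonate in sterol synthesis, was higher by less than 1.5-fold. It lies at chr13:119690379-119708260 (plus strand). A low-insulin cell held a median of 5 UMIs (highest 28), against 3 (highest 27). The level was 416 CPM (398 to 436), against 321 (315 to 327), a log2 ratio of 0.38 (0.30 to 0.45) and of 0.18 relative to genes of like length. Over the ranges of insulin share it went from 390, 459 and 403 CPM below 35% to 270 at 55 to under 60%, a gentle slope.

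The Hmgcs1 promoter is shown because it holds the sterol regulatory element, bound by the SREBP factors when cells lack sterol. It was searched as TCACNCCAC on both strands, and 1.22% of the promoters hold it. Capitals mark it at positions -137 to -129, on chr13:119690101-119690350 (plus strand, GRCm38.p6).
Hmgcs1: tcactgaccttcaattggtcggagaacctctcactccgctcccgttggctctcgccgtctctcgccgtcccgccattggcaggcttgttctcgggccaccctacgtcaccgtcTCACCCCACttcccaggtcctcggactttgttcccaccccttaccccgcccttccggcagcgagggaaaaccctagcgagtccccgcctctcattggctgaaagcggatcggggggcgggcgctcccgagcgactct
Of 20 promoters of the sterol list in the table, Hmgcs1 alone holds these letters.

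The sterol genes lay above the median gene as a list, without passing 1.5-fold upward. Of 21 measured genes 0 were higher and 1 lower, and the median was 0.25, or 0.09 relative to genes of like length. Srebf2, the transcription factor of the pathway, was at 101 CPM, against 73.6 (log2 0.46). Fdps, which makes farnesyl diphosphate, was the exception at 61.3 against 92.5 CPM (log2 -0.59, 1.5-fold lower).

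Of 14 genes of fatty acid synthesis 8 were measured and 1, Acaca, passed 1.5-fold. Acaca makes malonyl-CoA and stood at 20.4 CPM, against 13.5 (log2 0.60). It was measured only because of its level in the low-insulin cells, and relative to genes of like length it was at 0.29. Acly, which supplies acetyl-CoA, stood at 709 against 556, and Fasn at 35.7 against 29.8. The median was 0.39, and 0.13 relative to genes of like length. In cells of at most 5% mitochondrial UMIs the median minus that of all genes was 0.07.

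Neat1, a long nuclear RNA that builds paraspeckles, was found in 302 of 305 low-insulin cells and 2515 of 2629 reference cells. After thinning the shares were 96.6% (93.9 to 98.4) and 91.9% (90.7 to 93.0). Neat1 lies at chr19:5824708-5845478 (minus strand). The median was 9 UMIs (highest 27), against 5 (highest 34). The level was 648 CPM (624 to 672), against 480 (472 to 487), a log2 ratio of 0.43 (0.38 to 0.49) and of 0.12 relative to genes of like length. Of 7 nuclear-retained RNAs 0 passed 1.5-fold, with a median of 0.19. Malat1, another long nuclear RNA, was nearly alike at 29175 and 28298 CPM, and its medians per cell were 27222 and 27343. Malat1 thus lay below the median gene and Neat1 above it. Of 31 splicing and RNA processing genes 0 passed, with a median of 0.10.

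**Figure D4:**
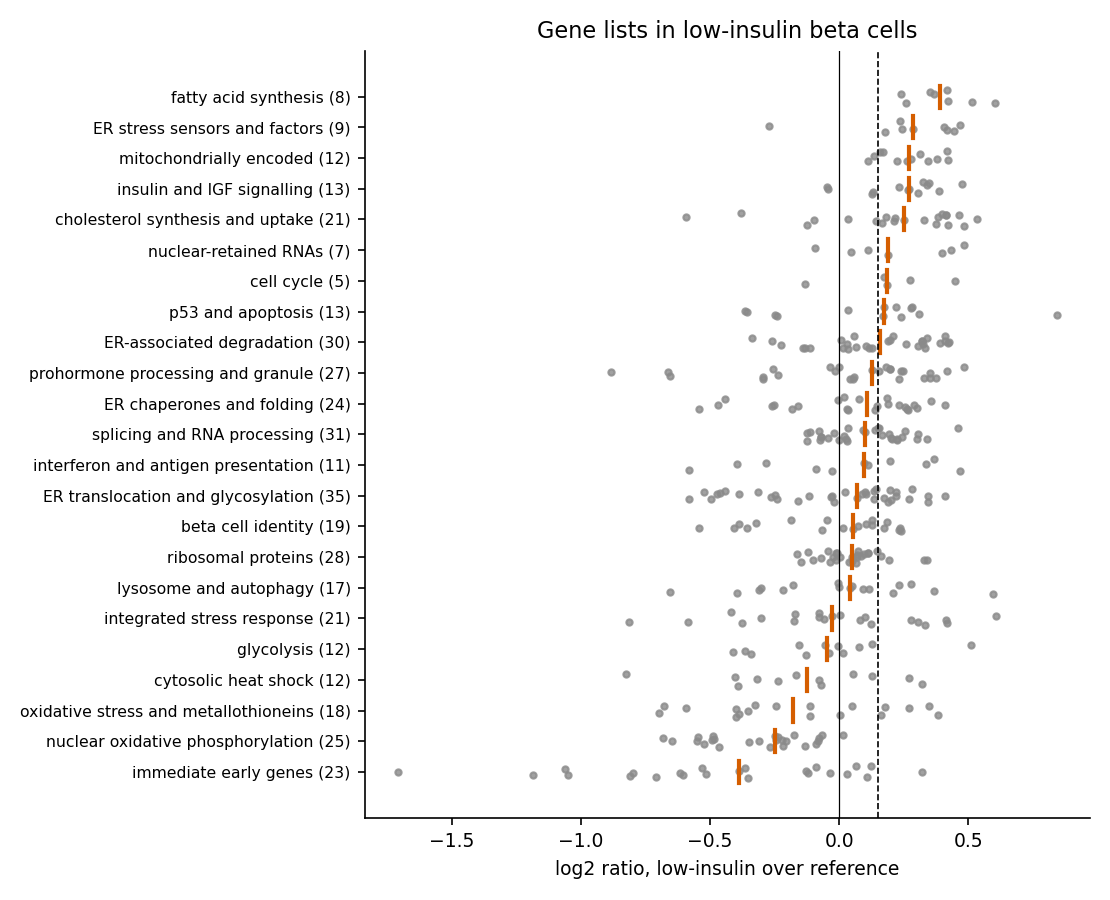
Log2 ratio of low-insulin over reference cells for the members of 23 gene lists (grey points, number measured in brackets) with each list's median (orange). The solid line is 0 and the dashed line the median of all genes, 0.15. Fatty acid synthesis lies furthest to the right (0.39) and immediate early genes furthest to the left (-0.39).

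The 10 highest ratios among genes of at least 50 CPM in either group were Gast, Ccl4, Ccl5, Cck, H2-Aa, Cd74, H2-Eb1, H2-Ab1, Siglec1 and Rsad2. For the first 8 of them a few cells held a large part of the transcripts. Gast, the gut hormone gastrin, had 269, 208, 114 and 70 UMIs in 4 low-insulin cells, and its median was 0. The share of its UMIs in the top 3 cells was 83.4%, and after thinning the 2 groups had a Gast UMI in 11.5% and 10.2% of cells (16.1% and 14.6% before). Its level of 159 CPM, against 14.5, therefore rests mostly on 4 of the 305 cells, and without the 1% of cells richest in it the log2 ratio went from 3.46 to 1.23. Cck, the hormone cholecystokinin, had 147 and 123 UMIs in 2 low-insulin cells and 297 in 1 reference cell.

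The chemokines and antigen-presenting genes followed the same form. Ccl4, a chemokine, had 437, 249 and 48 UMIs in 3 low-insulin cells, 83.9% of its total. Cd74, the invariant chain of MHC class II, had 49.1% of its UMIs in the top 3 cells, and after thinning 44.4% and 50.5% of cells of the 2 groups had at least 1 (63.9% and 64.6% before). All 16 macrophage markers had a higher level in the low-insulin cells, among them Tyrobp at 26.0 against 6.83 CPM. Of the 8 that were measured 7 were 1.5-fold higher, and 3 of these (C1qb, Tyrobp and Ctss) were measured only because of their level in the low-insulin cells. The summed level of the list was 754 CPM against 331, but the median per cell was 209 against 261. In 5 low-insulin and 2 reference cells macrophage markers exceeded 1% of UMIs. Ptprc and Adgre1, which define leukocytes and macrophages, had 8 and 6 UMIs in all low-insulin cells (1.80 and 1.35 CPM), against 21 and 11 in the reference (0.655 and 0.343 CPM). Without the cells in which markers of other types exceeded 0.2% the direction turned for Ccl4 (log2 -0.34), Ccl5 (-0.34), Cd74 (-0.47), H2-Aa (-0.44), H2-Ab1 (-0.40) and H2-Eb1 (-0.48). Cd74, H2-Aa, H2-Ab1 and Ccl5 are among the markers that chose the cells left out, so that limit itself bears on their values.

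**Figure D5:**
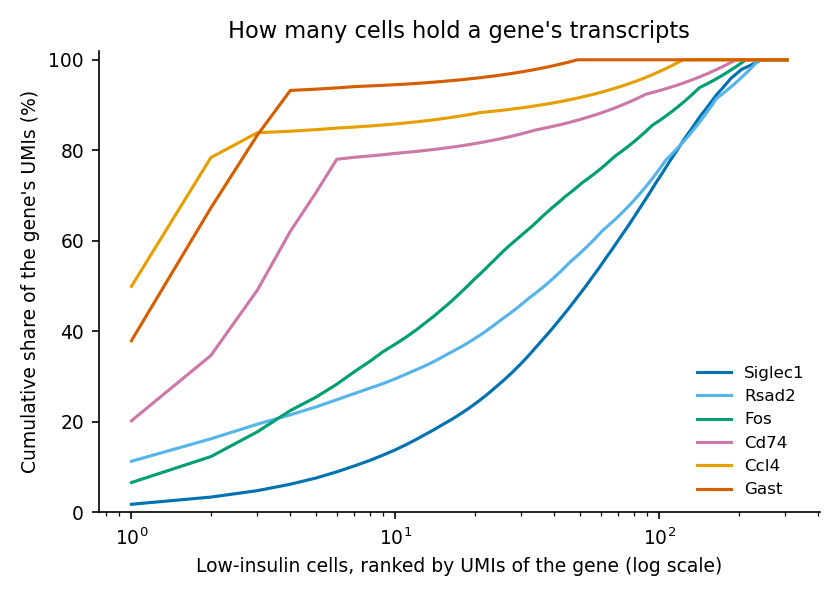
Cumulative share of a gene's UMIs over the 305 low-insulin cells, ranked from the cell with most UMIs of it (log scale). The curves of Gast, Ccl4 and Cd74 climb within the first 3 to 6 cells, while Siglec1 needs many cells, with 4.81% in the first 3.

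Markers of other cell types gave no common direction. Summed stellate and fibroblast markers were at 23.3 CPM against 11.1, endothelial markers at 103 against 64.3 and acinar markers at 36.1 against 77.7, and the median cell of both groups had 0 of each. T cell genes were near 0, with 0 UMIs of Cd3e and 1 of Cd3d in all low-insulin cells. Summed alpha, PP and ductal markers were at 5902, 4742 and 1498 CPM, against 6925, 4858 and 1598. Delta markers, whose list includes Pyy, were at 1732 against 1378, while their median per cell was 1030 against 1249. Schwann and red blood cell markers gave 23.6 and 33.0 CPM, against 19.3 and 40.1. Lymphocyte markers gave 204 against 159. Of these sums Ccl5 gave 87.1 and 25.8, and Cd79a, in the other direction, 116 and 132.

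Rsad2, or viperin, an interferon-induced antiviral enzyme, was higher in more cells than those few. It lies at chr12:26442746-26456452 (minus strand). The level was 195 CPM (182 to 208), against 109 (105 to 113), a log2 ratio of 0.84 (0.73 to 0.94) and the 1st rank of its length group. After thinning, 61.4% (55.5 to 66.9) of low-insulin and 42.9% (40.9 to 44.9) of reference cells had a UMI, against 13.3% of alpha cells. Its highest cells had 98, 43 and 28 UMIs, and the macrophages held 2075 CPM. Without the cells rich in Gast and Cck or in Ccl4 and Ccl5 (297 low-insulin and 2624 reference cells remain) the log2 ratio was 0.57, just under 1.5-fold.

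The Rsad2 promoter is shown because it holds the core of the interferon-stimulated response element, searched as GAAA, any 2 bases and GAAA on both strands, which 3.49% of the promoters hold. Capitals mark it at positions -120 to -111, where it reads on the opposite strand, on chr12:26456453-26456702 (minus strand gene, GRCm38.p6).
Rsad2: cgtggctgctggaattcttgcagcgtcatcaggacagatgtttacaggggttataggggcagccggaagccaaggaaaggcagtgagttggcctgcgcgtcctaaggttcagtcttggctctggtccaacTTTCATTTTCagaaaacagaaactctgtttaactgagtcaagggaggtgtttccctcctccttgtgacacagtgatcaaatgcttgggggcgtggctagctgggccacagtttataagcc
The other interferon genes did not pass with it. Of 11 genes of interferon response and antigen presentation 0 were 1.5-fold higher or lower, with a median of 0.09. Ifit1 was at 108 CPM against 77.9 (log2 0.47), and Ifi27 at 27.2 against 40.6 (log2 -0.58). The core stands in 5 of the 12 promoters of this list (B2m, H2-T23, Ifit1, Ifit3 and Isg15).

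The 10 lowest ratios were led by Fos and held 2 immediate early genes, which cells switch on within minutes of a stimulus. They were Fos, 8430408G22Rik, Rasd1, C2cd4b, Phlda1, Dusp1, Dapl1, Gm8797, Ndufb6 and Krtap17-1. Fos, a subunit of the AP-1 factor, stood at 258 CPM (244 to 274), against 843 (833 to 853), a log2 ratio of -1.71 (-1.79 to -1.62). Its median per cell was 1 UMI (highest 76), against 2 (highest 191). Over the ranges of insulin share Fos climbed without a break, with 103, 162 and 367 CPM below 35% and 500, 579, 780, 921 and 1174 above. Jun, its partner, was named after its values were seen and stood at 565 CPM, against 1179.

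Of 23 immediate early genes 0 were higher and 9 lower, against 2.3% and 2.44% of all genes. The list's median was -0.39, and -0.55 relative to genes of like length. Egr1, a zinc finger factor, was at 418 against 727 CPM, and Junb at 362 against 634. Other members were near the reference: Fosb stood at 1690 against 1615. Nr4a1, a nuclear receptor, stood at 174 against 170. The medians of the summed list were 6703 and 6798 CPM, while the 90th percentiles were 11680 and 17739. Immediate early genes exceeded 1% of non-insulin UMIs in 52 low-insulin cells (17.0%, 13.0 to 21.7) and in 822 reference cells (31.3%, 29.5 to 33.1). Without those cells Fos was at -0.46, under 1.5-fold, and Dusp1, a phosphatase that ends MAP kinase signals, turned to 0.14. Both genes are in the list that chose the cells left out, so that limit itself bears on these values. Among cells of 15000 to under 30000 UMIs Fos was at -0.78.

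The Fos and Dusp1 promoters are shown because both hold letters that match sites of the cAMP response factor CREB. As for the other promoters shown, a match is a description of letters only, and binding was not measured. The full palindrome was searched as TGACGTCA, held by 1.88% of the promoters, and its core as TGACG, on both strands, held by 21%. The core lies inside the palindrome. Capitals mark the cores of Fos at positions -129 to -125 and -66 to -62, on chr12:85473640-85473889 (plus strand), and the palindrome of Dusp1 at positions -143 to -136, on chr17:26508520-26508722 (minus strand), both GRCm38.p6.
Fos: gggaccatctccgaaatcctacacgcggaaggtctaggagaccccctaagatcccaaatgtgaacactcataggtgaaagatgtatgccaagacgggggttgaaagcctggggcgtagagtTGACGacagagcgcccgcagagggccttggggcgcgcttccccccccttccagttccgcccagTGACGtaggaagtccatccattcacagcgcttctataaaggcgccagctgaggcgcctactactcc
Dusp1: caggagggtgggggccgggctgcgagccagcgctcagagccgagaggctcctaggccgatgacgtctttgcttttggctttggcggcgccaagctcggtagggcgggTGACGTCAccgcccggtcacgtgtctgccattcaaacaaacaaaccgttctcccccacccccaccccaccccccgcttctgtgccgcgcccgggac
Of 22 promoters of immediate early genes, 13 hold the core and 2 the palindrome (Btg2 and Dusp1).

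C2cd4b, whose human counterpart lies in a region linked to diabetes, had a lower level. Its level was 286 CPM (271 to 302), against 736 (726 to 745), a log2 ratio of -1.36 (-1.45 to -1.28). Over the ranges of insulin share it climbed from 191 to 982 CPM. After thinning at least 1 UMI was found in 76.3% (71.0 to 81.0) of low-insulin and 80.7% (79.0 to 82.2) of reference cells (85.6% and 85.4% before), and in 78.4% of alpha cells. Without the 1% of cells richest in it the log2 ratio was -1.34. Without cells rich in immediate early RNA its log2 ratio was -0.43, under 1.5-fold, and among cells of 15000 to under 30000 UMIs it was -0.76. Ndufb6, a subunit of respiratory complex I, was at 49.6 against 107 CPM (log2 -1.10), and 30.8% (25.6 to 36.5) against 54.6% (52.6 to 56.6) of thinned cells had a UMI. Alpha cells had 119 CPM of it.

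A few transcripts of the secretory granule were lower. Of 27 genes of prohormone processing and granules 0 were higher and 3 lower, against 2.3% and 2.44% of all genes. The list's median was 0.13. Resp18, a granule protein, was at 831 CPM, against 1532 (log2 -0.88). Pcsk1n, an inhibitor of the convertase Pcsk1, was at 2735 against 4324 (log2 -0.66), and Cd63, a membrane protein of granules and lysosomes, at 477 against 752 (log2 -0.66). Chga, which encodes chromogranin A, was at 5341 against 6560. The processing enzymes Pcsk2 (3045 against 2931) and Cpe (2130 against 1857) lay near or above the reference, as did Syt7, a calcium sensor of exocytosis, at 0.48.

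Amylin RNA had a lower summed level in the low-insulin cells, short of 1.5-fold (log2 -0.54). The medians per cell lay somewhat further apart than the sums. Iapp had a median of 63763 CPM in a low-insulin cell (28524 to 235698), against 97575 (20815 to 228162). The ranges from lowest to highest cell overlapped over most of their width. The 90th percentile of the low-insulin cells (92305) nevertheless lay below the reference median. Pyy (peptide YY) was at 1293 CPM against 929, Sst (somatostatin) at 321 against 345, and Gcg and Ppy at 3133 and 3311 against 3520 and 3779, where the limits on Gcg, Ppy and Sst bound the range. Free RNA held 7374 CPM of Pyy. A median of 9 Pyy UMIs per cell was found in both groups, and the top 3 low-insulin cells held 26.3% of its UMIs there. Its log2 ratio of 0.48 ran from -0.29 to 1.18 under the alternatives given below. Ghrl had 0 UMIs in low-insulin cells, with an exact 95% upper limit of 0.828 CPM. The reference had 22 UMIs, but among 32045592 non-insulin UMIs, against 4454706 in low-insulin cells. After thinning, 0% (0 to 1.24) of low-insulin and 0.537% of reference cells had a Ghrl UMI. The count of 0 thus does not set the groups apart.

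Nuclear and mitochondrial genes of the respiratory chain lay on opposite sides of the median gene. Of 25 nuclear genes of oxidative phosphorylation 0 lay above the median gene and 2 were 1.5-fold lower, against 2.44% of all genes. The list's median was -0.25, and -0.18 relative to genes of like length. Cox5a and Ndufs7, subunits of complexes IV and I, were the 2 lower ones (70.5 against 113 and 90.5 against 142 CPM), but neither was 1.5-fold lower relative to genes of like length (log2 -0.57 and -0.41). Of 12 mitochondrially encoded genes 10 lay above the median gene and 0 passed 1.5-fold, with a median of 0.27. mt-Co1, a core subunit of complex IV, stood at 18232 CPM, against 14682. Within cells of at most 5% mitochondrial UMIs the mitochondrial list minus the median gene was at -0.25, a value that this limit itself bears on.

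Stress and redox genes were mixed. Of 12 cytosolic heat shock genes 0 were higher and 1 lower, Hspb1 (268 against 474 CPM, log2 -0.83), with a median of -0.12. Of 18 genes of oxidative stress and metallothioneins 0 were higher and 3 lower, against 2.3% and 2.44% of all genes, with a median of -0.18. The 3 were the peroxiredoxin Prdx2 (log2 -0.70), Txnip, which inhibits thioredoxin (log2 -0.68), and Txn1, thioredoxin itself (log2 -0.59). Relative to genes of like length Prdx2 was at -0.58 and Txn1 at -0.36, both short of 1.5-fold. The iron store Fth1 lay above the reference at 3386 against 2808 CPM. Without cells rich in immediate early RNA Txnip turned to 0.045.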

How the data were processed

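Islet cells were measured by 10x Genomics single-cell 3' v2 libraries, per the labels. The deposited WT matrix holds raw UMI counts per gene and droplet barcode, per the file headers, for 27998 genes and 737280 barcodes (118523180 UMIs). FastQC, Trimmomatic and the build mm10 are named, without versions, in the submitters' processing notes, and aligner and counter were not given in the sources used here. Of the transgenic library only a fragment was at hand, and it was not used.

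For each group of cells, the counts of a gene were added up and scaled to 1000000 non-insulin UMIs (CPM), with Python 3.11.15, numpy 2.4.6, scipy 1.17.1, pandas 2.3.3 and matplotlib 3.10.9. The UMI limit of 5610 is 10% of the 99th percentile of the 3000 largest barcodes. A gene was measured at 20 CPM or more in either group, and it was called higher or lower at 1.5-fold. Low-insulin cells gave 6327028 UMIs (4454706 non-insulin) and the reference 64184436 (32045592). Transcript lengths and gene coordinates come from GENCODE M21 (GRCm38) and promoters from RefSeq (GRCm38.p6). Intervals were tested on simulated data. A further 241 cells under 20% and 389 of 60% insulin or more were left out.

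The cell limits, members and the 24 pathway and 11 marker lists were chosen with earlier results of these data known. Of 592 listed genes 586 were in the gene list. Named genes were the 5 given with the rule, islet hormones, the 10 highest and 10 lowest ratios from 50 CPM, the 2 highest and 2 lowest members of each list, and the highest marker of each other cell type. Results on some genes are not reported here. Further list members were named for their role, and the motifs were chosen after the data were seen. Gm8797 may share reads with like copies, so its count is uncertain.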

Additional observations from a re-analysis of the deposited data

How the results depend on the processing

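No paired analysis was possible because there is 1 library and no replicate. The 12 alternatives laid down at the start and 6 added after seeing the data changed 1 choice each, apart from the comparison of neighbouring insulin ranges, which moved the limits of both groups. The 149 higher genes became 35 relative to the median gene, 43 with a floor of 50 CPM, 469 with a floor of 5, 262 against a reference of 45 to under 60% insulin, 94 in cells of 15000 to under 30000 UMIs, 261 with at most 5% mitochondrial UMIs, 299 without cells with RNA of other types, 46 relative to genes of like length and 94 between 30 to under 35% and 35 to under 40% insulin. The 158 lower genes became 360 relative to the median gene, 285 with a floor of 5, 92 in cells of 15000 to under 30000 UMIs, 89 without cells rich in immediate early RNA and 62 between the neighbouring insulin ranges. Other counts stayed within 1.5 times. These counts do not say how many of the same genes were called again. Between the neighbouring insulin ranges 31 of the 149 higher and 18 of the 158 lower genes were. With at most 5% mitochondrial UMIs 74 and 56 were, and relative to genes of like length 33 and 92. Against the reference of 45 to under 60% insulin 146 and 157 were. Without cells with RNA of other types the direction turned for Ccl5 (-0.34), Ccl4 (-0.34), H2-Ab1 (-0.40), H2-Aa (-0.44), H2-Eb1 (-0.48) and Cd74 (-0.47). Cd74, H2-Aa, H2-Ab1 and Ccl5 are themselves among the markers that chose the cells left out. With ductal markers not counted there these were -0.19, -0.34, -0.32, -0.39, -0.19 and -0.38. Ccl4 was at -0.30 without the 1% of cells richest in each gene. Without cells rich in immediate early RNA Txnip was at 0.045 and Dusp1 at 0.14, and between the neighbouring insulin ranges Phgdh was at 0.040. Without cells rich in Gast and Cck or Ccl4 and Ccl5, Ccl5 was at -0.17 and Ccl4 at -0.34. In 376 of 411 recomputed list medians the shift was under 0.1, and in 35 it was larger. Apart from that, the causes were not tested. Siglec1 lay between 0.74 and 1.11 in log2 under all 18 alternatives. Depth limits genes under about 20 CPM, where 305 cells give under 100 UMIs.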

Other observations

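Few growth, death and housekeeping genes passed 1.5-fold in the low-insulin cells, as was the case over all genes. Of all genes measured 2.3% were higher and 2.44% lower. Of 13 genes of p53 and apoptosis 1 was higher, Bcl2l11 (Bim), which triggers mitochondrial cell death. It was measured only because of its level in the low-insulin cells, and relative to genes of like length it was at 0.57, short of 1.5-fold. It stood at 33.0 CPM against 18.4 (log2 0.84), from 147 UMIs in 104 low-insulin cells, and after thinning 19.7% (15.3 to 24.7) of low-insulin and 13.3% (12.0 to 14.8) of reference cells had a UMI. The list's median was 0.17, and Bbc3 (Puma), which acts at the same step, was at -0.37. Of 17 lysosome and autophagy genes 1 was higher, Npc1, which exports cholesterol from lysosomes (31.9 against 21.1 CPM, log2 0.29 relative to genes of like length), and 1 lower, Cd63, with a median of 0.04. Of 13 genes of insulin and IGF signalling 0 passed, with a median of 0.27 and of 0.01 relative to genes of like length.

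Ribosomal protein transcripts, which are short, did not as a list share the lower ratios of short transcripts, but their members were split. Of 28 measured 0 passed, with a median of 0.05 and of 0.23 relative to genes of like length. A level above the reference was found for 17 of the 28. Rpl41 was at 0.34, while Rpl7 and Rpl18 were at -0.16 and -0.15. Of 12 glycolysis genes 0 passed, with a median of -0.05 and Gapdh at 357 against 474 CPM. Of 5 measured cell cycle genes 0 passed, with a median of 0.18. The 15 genes that beta cells normally keep silent ("disallowed" genes) were too low to measure singly, with 103 UMIs together in low-insulin cells (23.1 CPM) and 436 in the reference (13.6). Ubb, which encodes polyubiquitin and was named after its values were seen, climbed over the ranges of insulin share from 1852 to 4881 CPM.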
